A study of Rattus norvegicus with 2 samples.

Results

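The genes described here were the 4 tissue inhibitors of metalloproteinases (Timp1, Timp2, Timp3 and Timp4), the membrane-bound metalloproteinase inhibitor Reck, and 5 genes of plasminogen activation at the cell surface (Plau, Plat, Plaur, Anxa2 and St14). They were chosen by symbol, as the probe sets whose platform annotation carried exactly that 1 gene symbol, and all 10 of 10 genes had such a probe set, among 22093 genes named in this way. Each of the 10 had a single probe set, so no choice between probe sets was needed. Total RNA had been taken from the urinary bladders of male rats of the inbred F344 strain. From 10 weeks of age they drank water with 0 or 200 ppm of the arsenic metabolite dimethylarsinic acid (DMA) over 2 years, and the labels give an age of 114 weeks for both groups. The Control array held the pooled RNA of 5 rats given 0 ppm, labelled as bladder epithelium, and the DMA-tumor array held the pooled RNA of 6 DMA-induced bladder carcinomas. The published methods instead give control samples as bladder tissue and count fewer tumors, none of which was examined by histology. Each group thus had 1 array of pooled RNA, so the values below carry no replicate error and no test, and their precision is limited by the number of arrays.

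Tissue inhibitors of metalloproteinases are small secreted proteins that block the active site of matrix metalloproteinases and, in the case of Timp3, of several ADAM sheddases. Reck is held in the membrane by a lipid anchor and restrains metalloproteinases such as Mmp2, Mmp9 and Mmp14. Plasminogen, made mainly in the liver, is cut to the broad protease plasmin by urokinase (Plau) or by tissue plasminogen activator (Plat). Urokinase, which was first known from urine, works on the cell surface while bound to its receptor Plaur. Anxa2, paired with S100a10, holds plasminogen and tissue plasminogen activator on the membrane, and St14 (matriptase) is an epithelial membrane protease that can cut the urokinase precursor into its active form.

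Of the plasminogen activation genes, Plaur, Anxa2, Plau and Plat had higher signals on the DMA-tumor array and St14 a lower one. Plat (1.39-fold higher) and the 4 Timp genes stayed within 1.5-fold, and Reck had a lower signal. Plaur had a 3.97-fold, Anxa2 a 3.49-fold and Plau a 3.07-fold higher signal in the tumors. Reck was 2.60-fold and St14 1.79-fold lower. Of the 10 genes, 6 had a higher and 4 a lower signal in the tumors, 3 were at least 2-fold higher and 1 was at least 2-fold lower. A gene is called detected here if its signal reached 100 on either array, and 12074 genes were. Of these, 8.87% were at least 2-fold higher and 10.5% at least 2-fold lower. The methods of the study call a gene when its ratio reaches 2 and its Z-score 2, or when its ratio is 0.5 or less and its Z-score -2 or less. By these criteria 1 of the 10 genes, Plaur, was called higher, against 2.53% of the detected genes, and 0 were called lower, against 2.37%. The methods give no formula for the Z-score. Here it was each log2 difference less the mean of the detected genes, over their standard deviation of 1.02. It made the criteria stricter than 2-fold, since a call needed a log2 difference of 1.97 upwards or -2.11 downwards. All 10 genes were detected, Timp4 through the Control array alone. The median log2 difference (DMA-tumor minus Control, as throughout) of the 10 genes was 0.23, and that of the detected genes was -0.082.

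**Figure D1:**
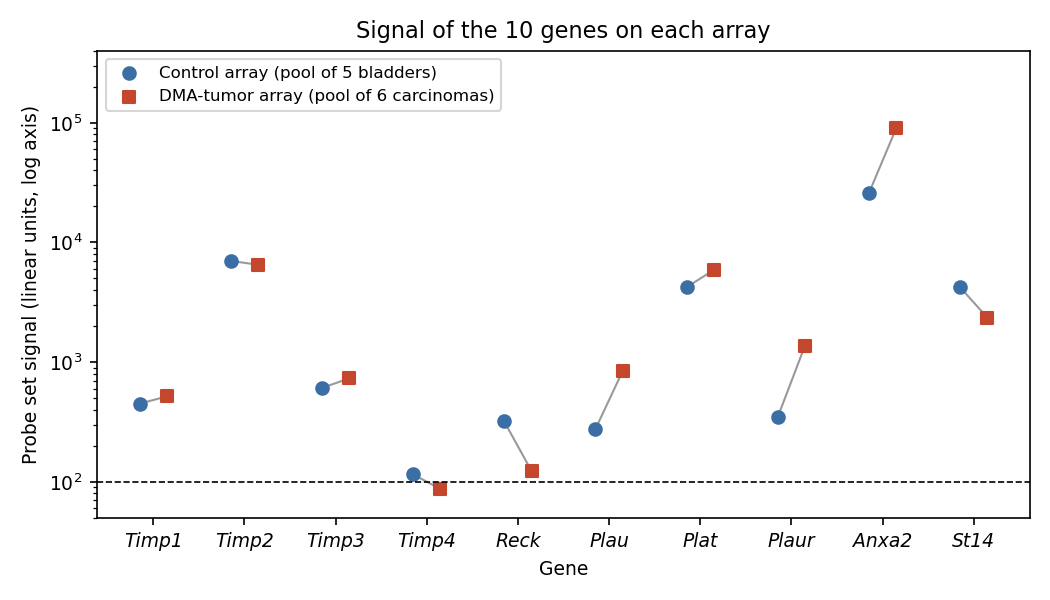
Probe set signal of each of the 10 genes on the Control array (circles) and the DMA-tumor array (squares), in linear units on a log axis, with a dashed line at 100. Plau, Plaur and Anxa2 lie clearly higher on the DMA-tumor array, Reck and St14 lower, and Timp4 crosses the dashed line from 115 to 87.1.

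Of the Timp genes, Timp1, which is induced by growth factors and cytokines in many cell types, measured 450 on the Control array and 518 on the DMA-tumor array, a log2 difference of 0.20. Timp2, which besides blocking Mmp2 also takes part in its activation by Mmp14, had signals of 7012 and 6516, a difference of -0.11. Timp3, which binds to the extracellular matrix, had signals of 609 and 732, a difference of 0.27. These 3 genes thus had nearly equal signals on both arrays. The signals of Timp4, known for a narrower expression than the other Timp genes, were 115 and 87.1, a difference of -0.40, or at least 1.15-fold lower with the tumor value raised to 100. All 4 differences lay inside the range from -0.81 to 0.52 that held the central 95% of 1276 olfactory and vomeronasal receptor genes, which were taken as silent in bladder and show the noise at low signal. The sign for Timp1 turned to -0.013 after quantile normalization, under which the median of all genes moved by -0.27, and relative to that median Timp1 was 0.34 higher.

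Reck measured 319 in controls and 123 in tumors, a log2 difference of -1.38. Of the detected genes, 5.84% had a lower difference. It was the lowest of the 10 genes, and its difference was 1.64 below that of Timp3, the inhibitor with the highest difference. Its Z-score of -1.28 did not meet the criteria. Relative to the median of all genes its difference stayed between -1.32 and -1.28 over the scalings and filters tried.

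Signals of genes that mark fibroblasts and smooth muscle were mostly lower on the tumor array. Of 10 fibroblast markers, 10 were called lower, with signals from 2118 to 57824 in controls and from 36.0 to 381 in tumors, and their summed signal was 162990 and 1857. They included the matrix genes Dcn (459-fold lower), Col1a2 (108-fold), Col1a1 (92.8-fold), Ogn (at least 74.4-fold) and Dpt (at least 46.3-fold). Of 10 smooth muscle markers, 8 were called lower and Lmod1 was under 100 on both arrays, with a summed signal of 57998 and 4777. Des was at least 32.4-fold, Cnn1 at least 22.3-fold and Actg2 28.2-fold lower. The Control array, though labelled as epithelium, thus showed high signals of fibroblast and muscle genes. In pooled tissue, fewer cells of a type and less RNA per cell cannot be told apart, and the part of these cells in the values of Reck and the Timp genes was not tested.

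Plaur, the urokinase receptor, which is anchored in the membrane by a lipid, measured 347 in controls and 1377 in tumors, a log2 difference of 1.99. It was the 1 gene of the 10 to meet both criteria, by a narrow margin, with a Z-score of 2.02, and 2.50% of detected genes had a higher difference. When the Z-score was taken within 20 bins of mean signal it was 1.97 and the call was lost. Plau had signals of 275 and 844, a difference of 1.62 with a Z-score of 1.65, and 3.98% of detected genes had a higher difference. On the deposited values both the enzyme and its receptor were at least 3-fold higher in the tumors (2.60-fold and 3.47-fold after quantile normalization), and their differences were 0.37 apart on the log2 scale.

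Plat, the second activator, which is typical of endothelium, had signals of 4227 and 5890, a log2 difference of 0.48. This was 1.14 below the difference of Plau, so the ratio of tumor to Control signal was 2.20 times as high for urokinase as for tissue plasminogen activator. The 10 endothelial markers had a median difference of -0.019 and summed signals of 3709 and 4050, with Plvap called lower (at least 4.70-fold), Vwf at least 2.17-fold higher without meeting the criteria, and Kdr at 1.26.

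White blood cells also make Plaur. All 6 neutrophil markers, among them S100a8, S100a9 and Mpo, were under 100 on both arrays, with the highest signal at 49.1 in controls and 73.1 in tumors. Of 10 macrophage markers, 0 were called in either direction and 8 had a lower signal in the tumors. Their summed signal was 5564 and 4084, with Mrc1, Csf1r and C1qb at -1.62, -1.60 and -1.34, while Cd14 was 2.04-fold higher, from 178 to 365, and Cd68 had a difference of 0.24. Of 6 T cell markers, 3 were under 100 on both arrays and Cd4 and Cd3g had differences of -3.59 and -2.47 and Cd2 was at least 1.55-fold lower, with a summed signal of 4075 and 610 for the list. Mast cell markers moved the other way, with 3 of 6 called higher and 2 under 100 on both arrays. Cpa3 was at least 5.20-fold, Tpsb2 at least 3.93-fold and Mcpt1 3.98-fold higher, and their list summed to 514 and 1977. The part of neutrophils, macrophages, T cells and mast cells in the signal of Plaur and Plau was not tested. Of 4 mesothelial markers, 0 were called, with Upk3b and Msln at -1.59 and 1.19, Lrrn4 at least 1.46-fold lower and summed signals of 6741 and 8223. Wt1, the remaining marker of that list, was under 100 on both arrays.

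Anxa2, the annexin that binds plasminogen at the membrane, measured 25789 in controls and 89973 in tumors, a log2 difference of 1.80 with a Z-score of 1.84. Of the detected genes, 3.13% had a higher difference. This value was the most sensitive of the 10 to scaling: with a loess trend on signal removed it was 1.09 (2.13-fold higher) and after quantile normalization 1.10 (2.14-fold). S100a10, its binding partner, had signals of 6288 and 7973, a difference of 0.34.

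St14, matriptase, measured 4228 in controls and 2355 in tumors, a log2 difference of -0.84 with a Z-score of -0.76. It lay just outside the range of the silent receptor genes, and 13.5% of detected genes had a lower difference. After quantile normalization St14 was 2.05-fold lower, but relative to the median of all genes its difference was -0.69 there and -0.76 as deposited. The difference of St14 was 2.65 below that of Anxa2. Markers of the epithelium were present on both arrays, with summed signals of 1968966 and 557380 for 10 urothelial differentiation genes, all lower in the tumors (median -1.64, 3 called), and of 534265 and 386777 for 7 genes shared by epithelia (median -0.44, 1 called lower). The former were led by Krt20 (at least 57.6-fold lower), Snx31 (9.35-fold) and Upk2 (4.86-fold), and in the latter 5 were lower and 2 higher in signal, with Krt18, Krt8 and Epcam at -3.62, -1.37 and -0.45 and Krt19 and Ocln at 0.39 and 0.29. Of 8 basal and squamous genes, 6 had a single-symbol probe set and 4 were called higher, with Krt14 (46.6-fold), Cd44 (16.7-fold), Itgb4 (6.58-fold) and Dsg3 (at least 4.63-fold) as those called and summed signals of 21130 and 204530. Most of the tumor sum was Krt14 (133451), and Tp63 and Col17a1 were not called, with differences of 0.14 and 0.54. The part of these epithelial differences in the values of Plaur, Anxa2 and St14 was not tested.

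**Figure D2:**
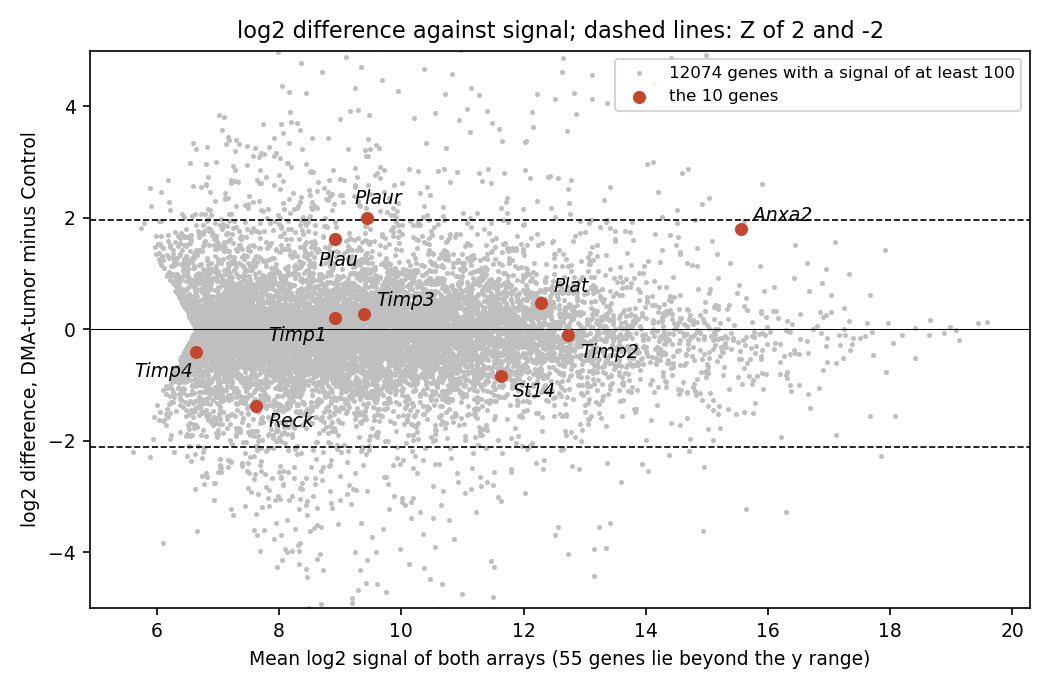
log2 difference (DMA-tumor minus Control) of 12074 genes against their mean log2 signal over both arrays (grey), with the 10 genes in red and dashed lines at Z-scores of 2 and -2. Plaur sits just above the upper line at 1.99, and Anxa2 at 1.80 and Plau at 1.62 lie under it. The Timp genes lie close to 0, while 55 genes fall beyond the plotted range.

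The promoters of the genes with the largest differences are shown because Plaur and Anxa2, the 2 with the highest differences, were also the 2 of 8 matched genes whose promoter held an AP-1 sequence. Sequences were matched by Entrez gene ID to RefSeq promoters of build GRCr8, and 8 of the 10 genes matched, all but Plat and St14. Each is the stretch of 250 bases before the annotated start, 5′ to 3′ on the strand of the gene, in lower case, with the motifs searched in capitals. The motifs, chosen with the differences known, were the AP-1 site TGANTCA (the same on both strands), the GC box GGGCGG, the TATA sequence TATAAA and the ETS sequence ACCGGAAGT, each on both strands, and no matches of different motifs overlapped in the 4 promoters printed.
Plaur, chr1:89181113-89181362, plus strand: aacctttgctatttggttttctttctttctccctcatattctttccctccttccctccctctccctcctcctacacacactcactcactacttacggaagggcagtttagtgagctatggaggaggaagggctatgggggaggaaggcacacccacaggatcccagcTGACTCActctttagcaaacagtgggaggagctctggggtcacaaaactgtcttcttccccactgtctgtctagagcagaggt
Anxa2, chr8:78986002-78986251, plus strand: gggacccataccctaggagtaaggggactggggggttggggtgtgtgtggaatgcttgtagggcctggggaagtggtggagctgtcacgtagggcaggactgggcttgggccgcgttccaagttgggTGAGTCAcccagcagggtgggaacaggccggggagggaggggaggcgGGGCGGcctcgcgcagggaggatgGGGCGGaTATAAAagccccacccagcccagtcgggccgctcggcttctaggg
Plau, chr15:3511988-3512237, minus strand: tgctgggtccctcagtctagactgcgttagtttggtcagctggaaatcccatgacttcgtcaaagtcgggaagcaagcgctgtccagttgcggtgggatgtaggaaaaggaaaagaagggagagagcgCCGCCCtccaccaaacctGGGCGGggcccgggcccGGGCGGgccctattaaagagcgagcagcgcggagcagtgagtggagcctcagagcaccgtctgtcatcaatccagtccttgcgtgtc
Reck, chr5:62898467-62898716, plus strand: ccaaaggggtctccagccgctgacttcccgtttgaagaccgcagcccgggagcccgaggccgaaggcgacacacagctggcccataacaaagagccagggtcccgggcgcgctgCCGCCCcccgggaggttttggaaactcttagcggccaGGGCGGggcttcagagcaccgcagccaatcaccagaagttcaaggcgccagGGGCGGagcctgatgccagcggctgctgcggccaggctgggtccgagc

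The AP-1 match began 83 bases before the start in Plaur and 123 bases before it in Anxa2. It was present in 6.34% of 33469 rat promoters of the same length. The promoters of Plau and Reck held 0 AP-1 matches and 3 GC boxes each, beginning 122, 104 and 87 bases before the start in Plau and 136, 99 and 48 bases before it in Reck. GC boxes were found in 6 of the 8 promoters, against 30.5% of all promoters, and the 4 promoters printed had a GC content of 51.2% (Plaur), 67.2% (Anxa2), 60.0% (Plau) and 68.4% (Reck) beside a median of 51.2% over all. The part of AP-1 sequences and GC boxes in the differences of the 8 genes was not tested. Bases further upstream were not searched. A TATA sequence, present in 12.9% of all promoters, was found in Anxa2 alone of the 8, 45 bases before the start. The ETS sequence, present in 0.95% of promoters, was found in 0 of the 8. A match describes the letters of this window and does not show that a factor binds there.

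The other genes of these systems were read from 6 lists with 81 genes, of which 79 had a single-symbol probe set and 54 were detected. Of these 54, 6 (11.1%) were called higher and 5 (9.26%) lower, beside 2.53% and 2.37% of all detected genes. The lists were chosen with earlier results known, so these shares are a description. Plasminogen itself (Plg) was under 100 on both arrays, as were Vtn, which binds to Plaur, and the fibrinogen genes Fga, Fgb and Fgg. In the list of plasminogen, its receptors and partners, 10 of 12 genes were detected, 0 were called in either direction and 4 were at least 2-fold higher (median 0.55). These were Lrp1, the endocytic receptor that clears urokinase bound to its inhibitor, with signals of 2126 and 7751 (3.65-fold), the integrin Itgav (3.36-fold), Eno1, a glycolytic enzyme that also binds plasminogen (2.57-fold), and F2rl1, a receptor cut by matriptase (2.42-fold). The integrin Itgb5 was 2.43-fold lower. Lrp1 was called higher in 4 and Itgav in 3 of the 9 alternatives, which were the other filters on signal and, for Lrp1, values under 100 raised to 100.

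Inhibitors of the plasminogen system went both ways. Of 9 genes, 4 were detected (median -0.45, or 0.057 with values under 100 raised to 100). Serpinb2, an inhibitor of urokinase, was called higher, with signals of 32.7 and 306 (at least 3.06-fold), and this call was lost with values under 100 raised to 100. Serping1, the inhibitor of complement C1 and of kallikrein, was called lower, from 1646 to 94.2 (at least 16.5-fold). The broad protease inhibitor A2m was called lower, from 283 to 45.1 (at least 2.83-fold), a call lost both with values raised to 100 and with the mean of its 3 probe sets. When 100 had to be reached on both arrays, Serpinb2, Serping1 and A2m were all filtered out, so none of their calls could be made there. Serpine2, an inhibitor of thrombin and urokinase, was 3.36-fold higher without meeting the criteria. It was called higher with each of the 3 other filters on signal. In the matriptase list, which holds its inhibitors, substrates and relatives, 11 of 16 genes were detected, 0 were called higher and 1 lower (median -0.45, or -1.08 with the loess trend removed). The 1 was Prss8, a membrane protease that matriptase activates (4.78-fold lower). Spint1 and Spint2, which block matriptase, had differences of -0.86 and -0.12, the first close to that of St14 itself. Mst1r, a receptor for a growth factor cut by matriptase, had the highest difference of the list (3.49-fold higher). It was called higher with each of the 3 other filters on signal, and the related receptor Met was 2.33-fold higher.

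The metalloproteinases that the Timp genes and Reck restrain differed in both directions. Of 24 genes, 15 were detected, with differences from -5.42 (Mmp2) to 9.75 (Mmp13) and a median of 0.18 (-0.12 after quantile normalization), while the 5 inhibitors lay between -1.38 and 0.27. Mmp13 (at least 708-fold), Mmp3 (83.9-fold) and Mmp12 (5.65-fold), which degrades elastin, were called higher, and Mmp2 was called lower (at least 31.8-fold). Mmp14, the membrane protease that Timp2 and Reck act on, had signals of 1840 and 2055, a difference of 0.16 close to those of Timp1, Timp2 and Timp3. Adam17, a sheddase blocked by Timp3, was 2.19-fold higher, and Mmp9 was under 100 on both arrays. Among the other annexins, Anxa1 was called higher (12.4-fold, from 1292 to 16079) and Anxa6 was 3.17-fold lower. The median of the 10 other annexins detected was -0.12, and -0.64 after quantile normalization, beside 1.10 for Anxa2 on that scale. In the clotting list, Procr, the endothelial protein C receptor, was called higher (4.01-fold) and the tissue factor pathway inhibitor Tfpi lower (8.16-fold). F3, tissue factor, had a difference of 1.96, just under the criteria, and was called higher in 6 of the 9 alternatives.

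**Figure D3:**
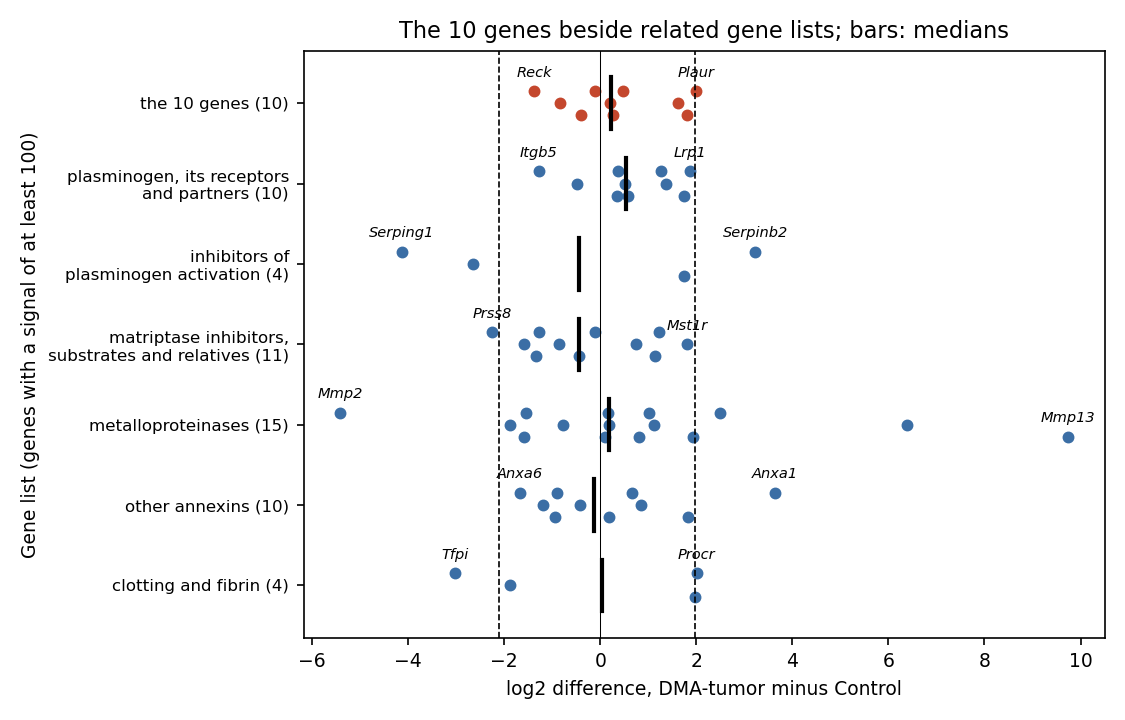
log2 difference (DMA-tumor minus Control) of the 10 genes (red) and of the genes of 6 related lists (blue) that were detected. Black bars are medians, dashed lines mark Z-scores of 2 and -2, and the lowest and highest gene of each row is named. The 10 genes run from Reck at -1.38 to Plaur at 1.99, while the metalloproteinases run from Mmp2 at -5.42 to Mmp13 at 9.75.

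**Figure D4:**
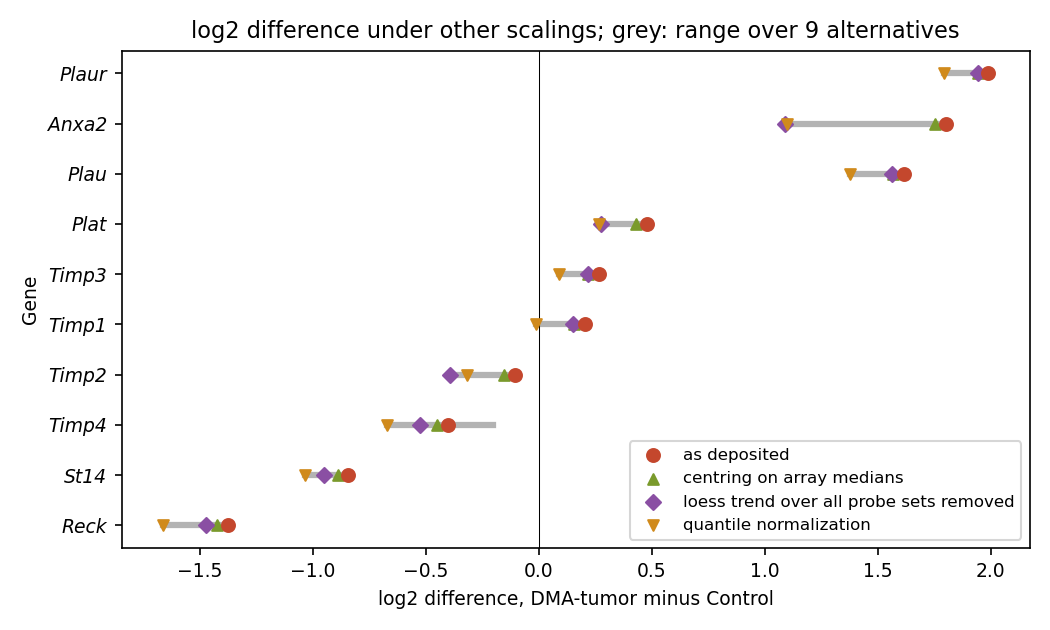
log2 difference (DMA-tumor minus Control) of each of the 10 genes with the deposited values (red) and after centring, loess or quantile normalization, with the range over 9 alternatives (8 for Timp4) in grey. Timp1 alone crosses 0, at -0.013, and Anxa2 has the widest range, from 1.09 to 1.80.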

How the data were processed

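Per the labels, TRIzol RNA was labelled with biotin by a kit for whole transcripts. RMA and version 1.4.1 of Affymetrix Expression Console appear in the processing notes of the submitters. The paper's methods describe a 3'-based rat array, global median normalization and removal of intensities under 100. The probe sets are transcript clusters and values under 100 are present, so which normalization was used is not settled. The values deposited by the authors are linear intensity values per probe set (medians 50.6 and 52.3), and log2 of each was taken without further scaling. Of 68842 probe sets, 23446 had 1 gene symbol, and for a gene with several of them the one with the highest mean log2 signal was used.

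With 1 array per group no test was made. Signals under 100 were set to 100 for folds, which are then lower bounds. The members and lists were chosen with earlier results of these data known. The genes named were the 10 members, the called genes and largest differences of each related list, and markers of each cell type. Up to 3 markers a list were planned, and more were named for some lists, such as those of fibroblasts and macrophages. Further list genes, such as S100a10, Mmp14, Adam17, Spint1, Spint2, Met and F3, were added after their values were seen. The alternatives were 3 other filters on signal, centring, loess (span 0.3), quantile normalization, averaging the probe sets of a gene, values raised to 100 and Z-scores in 20 bins. There were 0 columns of other series. The software was Python 3.11.15 with statsmodels 0.14.6, pandas 2.3.3, numpy 2.4.6 and matplotlib 3.10.9.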

Additional observations from a re-analysis of the deposited data

How the results depend on the processing

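The number of the 10 genes called higher was 1 as reported, 3 with no filter on signal (Plaur, Anxa2 and Plau), 2 (Plaur and Anxa2) when 100 had to be reached on both arrays or only 32 on either, and 0 with Z-scores within signal bins. The filters left each log2 difference as it was and changed the standard deviation of all genes, which was 1.02 as reported and 0.78 with no filter. The number at least 2-fold lower was 2 after quantile normalization, with St14 beside Reck, under a scaling that moved the median of all genes by -0.27; relative to that median St14 was at -0.69, against -0.76 as reported. The other 40 of 45 comparisons of the member counts and of their median moved by less than 1.5 times or by less than 0.34. The limit of 0.34 is the standard deviation of the silent receptor genes, which shows noise at low signal and is not a spread between replicates. Of 89 comparisons of single members, 82 kept their call and moved by less than 0.34. The others were those of Plaur, Plau and Anxa2 given above and in the report. Of 162 comparisons of the related lists, 120 did so. No paired analysis was possible because each group had 1 array, and no array could be left out.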
